A study of Mus musculus with 12 samples.

Results

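Mitochondrial ribosomal protein genes were taken as the array features that name exactly 1 gene with a symbol made of Mrpl or Mrps and a number. Pseudogenes marked -ps were left out. The rule gave 75 genes of the 30702 genes that a feature named alone, with 1 feature each: 47 of the large subunit (Mrpl) and 28 of the small subunit (Mrps). RefSeq lists 78 protein-coding mouse genes with such symbols. Features shared with another gene kept Mrpl30, Mrpl53 and Mrps6 out. Mrpl58 stands in the array annotation under its older symbol Ict1. All 75 genes passed the filter on dim features, which asked for a log2 value above 5.30, the median over the whole table, on 3 or more arrays.

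The mitochondrial ribosome translates the messages encoded by mitochondrial DNA, which specify membrane-embedded subunits of the respiratory chain and of ATP synthase. Its ribosomal RNAs come from mitochondrial DNA, whereas all of its proteins are encoded in the nucleus, made in the cytosol and imported. The large subunit forms peptide bonds, and the small subunit binds messenger RNA and decodes it. Erythroblasts build haem partly inside mitochondria and clear these organelles at the end of maturation.

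All groups were splenic erythroblasts of male mice that had received phenylhydrazine, a haemolytic drug that drives stress erythropoiesis, 3 days earlier. Before it, the mice were fed for 3 months on either of the study's diets, selenium adequate or selenium deficient. Proerythroblasts, the earlier stage, and basophilic erythroblasts, the next stage, were obtained by flow sorting, which gave 4 groups of 3 arrays, 12 arrays in all, from 5 ng of total RNA each. Strain and age are not given in the labels. The labels do not say whether replicates came from separate mice, so p-values measure the spread between these samples, which may be technical.

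Values are deposited log2 expression values, and differences are log2 changes: -1 is a level of 1 against 2 on the linear scale. Tests were made with limma, with Benjamini-Hochberg adjustment over 20128 genes and a threshold of 0.05. "Fell" and "lower at the later stage" are used of genes past it. Values of different genes come from different probes and are not compared as levels of expression. A highest or lowest mean serves only to pick genes to name. The basophilic arrays had a narrower range of values (interquartile ranges 2.17 to 2.49, against 2.59 to 2.66 in proerythroblasts). Replicate 2 of both basophilic groups stood apart, with the highest background (4.19 and 4.70, against 3.31 to 3.80 on the other arrays). For deficient basophilic replicate 3, 1 label of the submitters says proerythroblasts while the title and cell type say basophilic. The title was followed.

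The 4 groups separated by stage first. For each gene the mean over the 12 arrays was subtracted, and the median was taken over the 47 large subunit genes on each array. This median was 0.83, 0.68 and 0.56 in adequate proerythroblasts and 0.54, 0.01 and 0.28 in deficient proerythroblasts. In basophilic erythroblasts it was -0.29, -0.73 and -0.38 on the adequate diet and -0.34, -0.84 and -0.35 on the deficient diet. The 28 small subunit genes followed the same order of groups: 0.66, 0.58 and 0.50, then 0.49, 0.11 and 0.31, then -0.30, -0.62 and -0.31, and last -0.26, -0.65 and -0.33. All 6 proerythroblast arrays lay above all 6 basophilic arrays in both subunits. Within proerythroblasts the 3 adequate arrays lay above the 3 deficient arrays, by the least between adequate replicate 3 and deficient replicate 1. In basophilic erythroblasts the diets overlapped. Over all genes tested the same medians lay between -0.09 and 0.11.

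**Figure D1:**
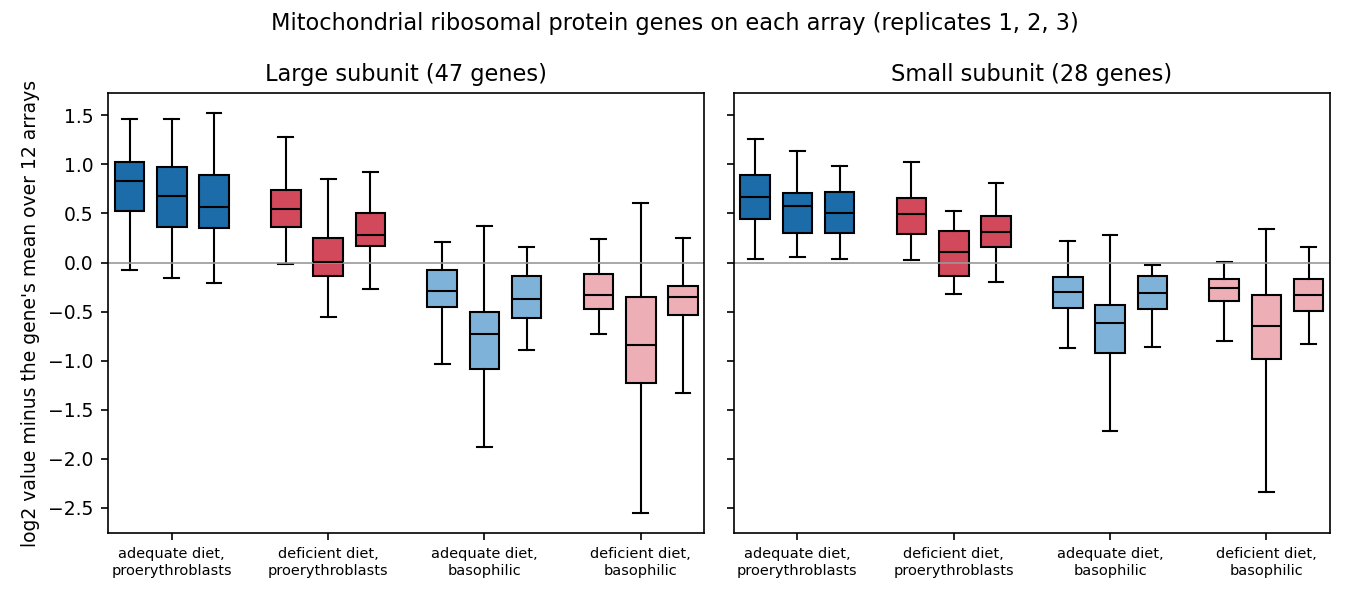
Boxes give, for each of the 12 arrays, the spread over genes of the log2 value minus the gene's mean over all arrays, for the 47 large subunit genes (left) and the 28 small subunit genes (right). The line is the median, the box the middle quartiles and the whiskers the lowest and highest gene. The 6 proerythroblast arrays have medians from 0.01 to 0.83 in the large subunit, and the 6 basophilic arrays from -0.84 to -0.29.

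By gene, the mean was highest in adequate proerythroblasts for 66 of the 75 genes, in deficient proerythroblasts for 8 and in a basophilic group for 1. For 63 genes the deficient proerythroblast mean lay below that of adequate proerythroblasts and above those of both basophilic groups. Replicates were unequal. Deficient proerythroblast replicate 2 was the lowest of its group for 65 of the 75 genes, and replicate 2 of each basophilic group for 58. The median SD over genes was 0.10 in adequate proerythroblasts, 0.25 in deficient proerythroblasts, 0.24 in adequate and 0.29 in deficient basophilic erythroblasts (n = 3 each).

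The stage comparison asked how the genes differed between basophilic erythroblasts and proerythroblasts on each diet. On the adequate diet 37 of 47 large subunit genes fell and 10 did not pass, and 23 of 28 small subunit genes fell and 5 did not pass. None rose in either subunit. Of all genes tested 54.2% passed, 25.6% lower and 28.7% higher, against 78.7% of the large and 82.1% of the small subunit genes lower. Brighter genes leaned lower. A stricter filter asked for values above 6.62 on 3 or more arrays, and 74 of the 75 genes passed it. Under it 37.6% of all genes were lower and 18.5% higher, against 81.1% of these 74 lower. The median change was -1.19 in the large and -1.09 in the small subunit, a linear ratio of 0.437 and 0.471, and 0.12 over all genes. For 43 large and 27 small subunit genes the 3 basophilic arrays lay wholly below the 3 proerythroblast arrays, an order seen in 32.6% of all genes. In bulk samples, fewer cells of a type and less RNA per cell cannot be told apart.

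On the deficient diet 30 of 47 large and 20 of 28 small subunit genes fell, and again none rose. The background was 56% of all genes passing, 24.9% lower and 31.1% higher, against 63.8% of the large and 71.4% of the small subunit genes lower. Under the stricter filter 36.5% of all genes were lower and 16.7% higher, against 67.6% of the 74 genes lower. The median changes were -0.76 in both subunits, a linear ratio of 0.592 and 0.590, and 0.08 over all genes. The basophilic arrays lay wholly below the proerythroblast arrays for 30 large and 20 small subunit genes, against 29.6% of all genes. In all, 47 genes fell on both diets, 13 passed only on the adequate diet, 3 only on the deficient diet, and 12 on neither. These counts do not test a difference between diets, which is the interaction given further on.

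**Figure D2:**
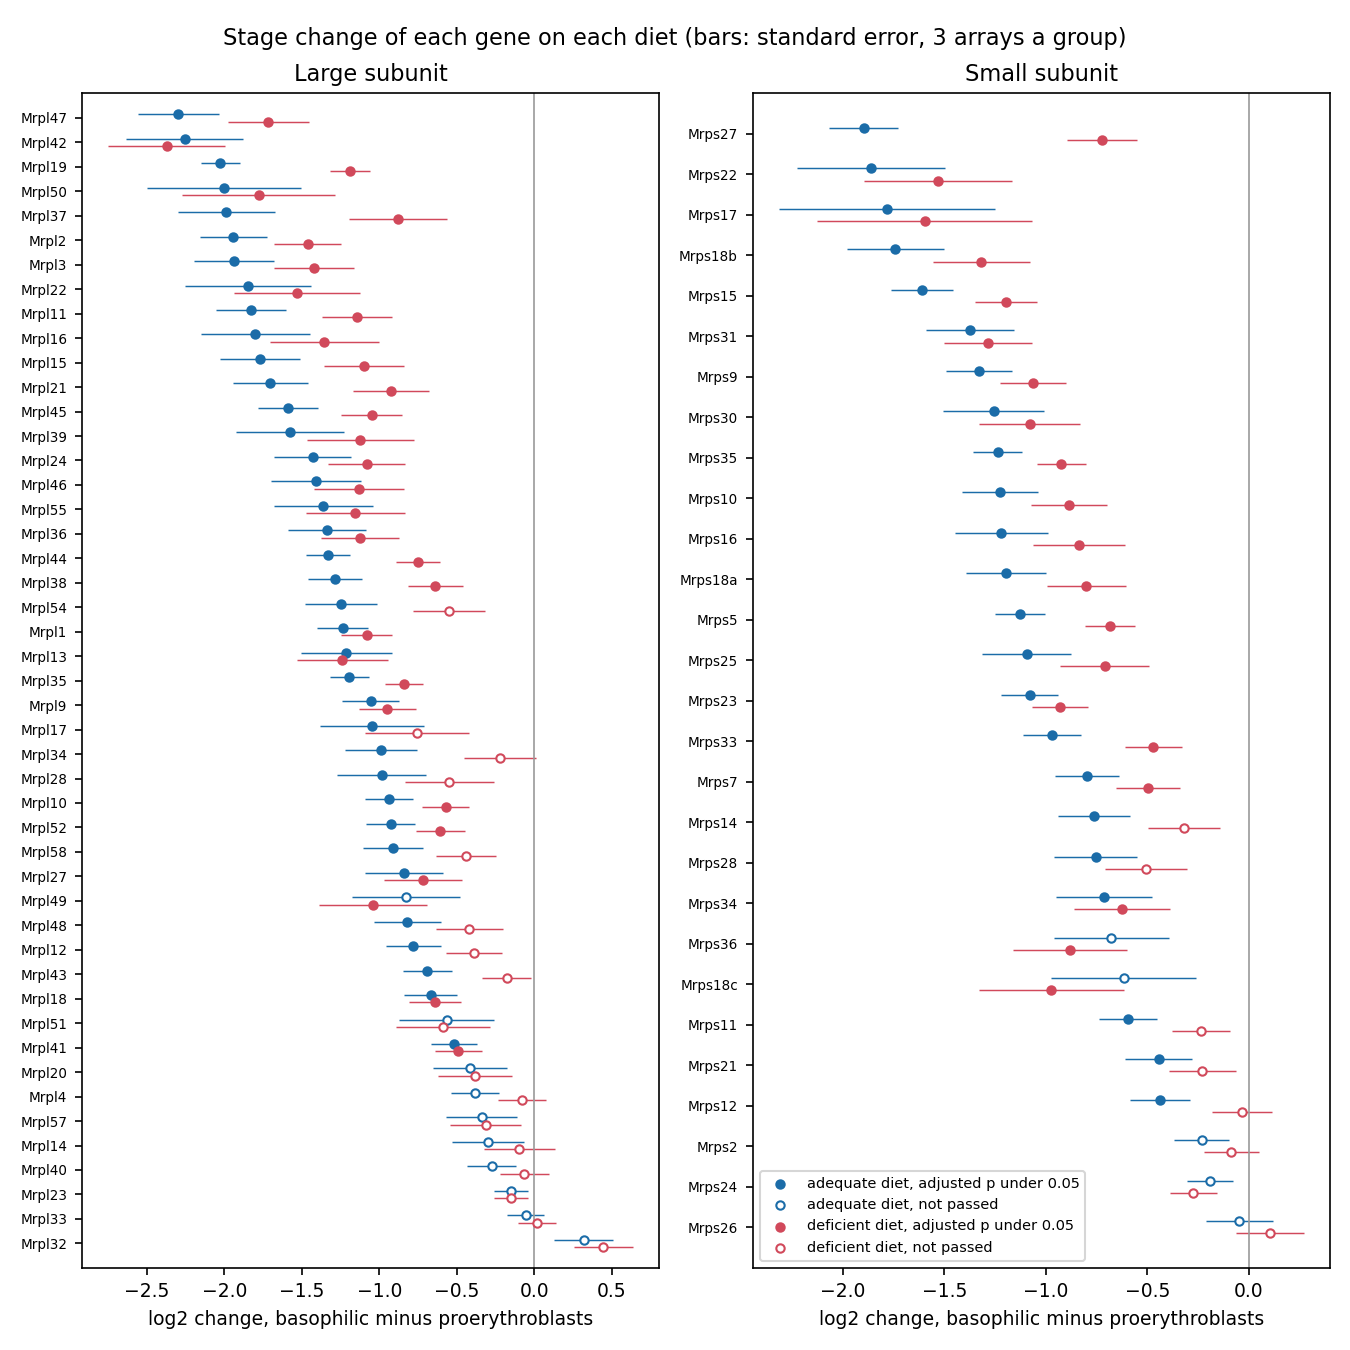
Points give each gene's log2 change, basophilic erythroblasts minus proerythroblasts, on the adequate (blue) and the deficient (red) diet, with the standard error as a bar (3 arrays a group). Filled points have an adjusted p under 0.05. Of the large subunit genes, 37 on the adequate and 30 on the deficient diet are filled, all left of 0, and Mrpl32 lies right of 0 on both diets.

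The smallest stage p of the large subunit on both diets was that of Mrpl19, the counterpart of bacterial protein L19. It read 8.93, 8.95 and 8.99 in adequate proerythroblasts and 6.87, 6.90 and 7.02 in adequate basophilic erythroblasts. On the deficient diet it read 8.55, 8.38 and 8.44 and then 7.44, 7.04 and 7.32. The stages were far apart on both diets. Mrpl19 fell by 2.03 (SE 0.13, adjusted p = 1.2e-06) on the adequate and by 1.19 (SE 0.13, adjusted p = 1.85e-04) on the deficient diet.

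Mrpl35, another protein with a bacterial counterpart, fell by 1.19 (adjusted p = 2.47e-05) and by 0.84 (adjusted p = 9.29e-04). Mrpl2 encodes the counterpart of bacterial L2, a protein near the site of peptide bond formation. Its values were 10.13, 9.97 and 9.98 in adequate proerythroblasts and 8.43, 7.64 and 8.18 in adequate basophilic erythroblasts, and on the deficient diet 9.68, 9.18 and 9.50 and then 8.24, 7.65 and 8.08. It fell by 1.94 on the adequate diet and by 1.46 on the deficient diet. Mrpl3, the counterpart of L3, which reaches towards the same site, fell by 1.94 and 1.42. Mrpl1, of the mobile L1 stalk, fell by 1.24 and 1.08.

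The stalk of the large subunit recruits translation factors. Mrpl10, its base, read 8.19, 8.04 and 7.85 in adequate proerythroblasts and 7.28, 6.86 and 7.13 in adequate basophilic erythroblasts. It fell by 0.94 (adjusted p = 6.49e-04) on the adequate and by 0.57 (adjusted p = 0.0141) on the deficient diet. Mrpl12, the stalk protein that Mrpl10 carries, fell by 0.78 on the adequate diet and changed by -0.39 without passing on the deficient diet (adjusted p = 0.0772). Mrpl11, at the foot of the stalk, fell by 1.83 and 1.14.

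Among large subunit proteins without a bacterial counterpart in the lists used, Mrpl44, a protein with a ribonuclease III fold, fell by 1.33 (adjusted p = 3.08e-05) and by 0.75 (adjusted p = 0.00356). Mrpl41 fell by 0.52 and 0.49. Mrpl58, a peptidyl-tRNA hydrolase built into the large subunit, fell by 0.91 on the adequate diet and changed by -0.44 on the deficient diet (adjusted p = 0.0676). Over the 29 large subunit genes with a listed bacterial counterpart, 23 fell on the adequate and 19 on the deficient diet. Of the 18 others, 14 and 11 fell. The medians were -1.19 and -0.92 with a counterpart and -1.09 and -0.62 without one.

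In the small subunit the smallest stage p on the adequate diet was that of Mrps27, a pentatricopeptide repeat protein. It read 8.12, 8.10 and 7.88 in adequate proerythroblasts and 6.12, 6.16 and 6.13 in adequate basophilic erythroblasts. It fell by 1.90 (SE 0.17, adjusted p = 9.58e-06). On the deficient diet it read 7.26, 7.11 and 7.38 and then 6.19, 6.92 and 6.47, a fall of 0.72 (SE 0.17, adjusted p = 0.00941). Its arrays separated the stages on both diets, with the widest gap on the adequate diet.

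Mrps15, the counterpart of bacterial S15, had the smallest p of the small subunit on the deficient diet. It read 8.34, 7.83 and 8.08 in deficient proerythroblasts and 6.91, 6.79 and 6.96 in deficient basophilic erythroblasts, a fall of 1.20 (adjusted p = 4.22e-04). On the adequate diet it fell by 1.61. Mrps35, a protein found in mitochondrial but not bacterial ribosomes, fell by 1.24 and 0.92. Mrps5, the counterpart of S5, which helps to keep decoding accurate, fell by 1.13 and 0.68. Mrps9 fell by 1.33 and 1.06, and Mrps23 by 1.08 and 0.93.

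Other small subunit genes with known roles fell too. Mrps12, the counterpart of the decoding protein S12, fell by 0.44 on the adequate diet (adjusted p = 0.0288), and its change of -0.03 on the deficient diet did not pass. Mrps7 fell by 0.80 and 0.50, and Mrps16 by 1.22 and 0.84. Mrps22 fell by 1.86 and 1.53 and Mrps34 by 0.71 and 0.62. Variants of MRPS16, MRPS22 and MRPS34 are known in inherited deficiencies of mitochondrial translation. Of the 15 small subunit genes with a listed bacterial counterpart 12 fell on the adequate and 8 on the deficient diet, and of the 13 others 11 and 12.

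A trio of symbols stands for counterparts of the single bacterial protein S18. Mrps18b fell by 1.74 and 1.32. Mrps18a, whose protein sits in the large subunit, fell by 1.20 and 0.80. Mrps18c had the highest mean of all 75 genes. It read 10.34, 10.23 and 10.24 in adequate proerythroblasts, 10.61, 10.32 and 10.63 in deficient proerythroblasts, 10.03, 9.06 and 9.87 in adequate and 9.91, 8.57 and 10.16 in deficient basophilic erythroblasts. The second replicate of each basophilic group was far below the other two. Its change was -0.62 on the adequate diet (adjusted p = 0.154), and it fell by 0.97 on the deficient diet (adjusted p = 0.0379). Mrps30, likewise a protein of the large subunit despite its symbol, fell by 1.26 and 1.08. Moving Mrps18a and Mrps30 to the large subunit left every count within 1.5 times of the one given.

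The 12 genes that fell on neither diet were Mrpl4, Mrpl14, Mrpl20, Mrpl23, Mrpl32, Mrpl33, Mrpl40, Mrpl51, Mrpl57, Mrps2, Mrps24 and Mrps26. They are named after their values were seen. Mrpl32, the counterpart of bacterial L32, had the 1 positive estimate on the adequate diet (0.32, adjusted p = 0.17) and the highest on the deficient diet (0.44, adjusted p = 0.0649). It read 6.97, 6.81 and 6.76 in adequate proerythroblasts and 7.18, 7.34 and 6.97 in adequate basophilic erythroblasts, so the stages touched at 6.97. Mrps26 read 8.11, 8.19 and 8.11 and then 7.88, 8.35 and 8.04, with overlap. Mrps2, the counterpart of bacterial S2, changed by -0.23 and -0.09. Mrpl33, with the lowest mean of all 75 genes, stayed between 5.41 and 5.68 on every array, close to the filter. Mrpl49, the large subunit gene with the highest mean, passed only on the deficient diet (-1.04, adjusted p = 0.0274), and its change on the adequate diet was -0.83 (adjusted p = 0.0608).

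Of the 60 genes that fell on the adequate diet, 51 kept the call whichever single array was left out, and 35 of the 50 did on the deficient diet. The small subunit count on the deficient diet was 13 without deficient proerythroblast replicate 1 or replicate 3. Without replicate 2 of both basophilic groups 60 of the 60 and 48 of the 50 kept their calls. After quantile normalization, which gives all arrays 1 distribution, 49 and 38 kept them, against 21.1% and 18.9% of all genes lower, and the medians over both subunits were -0.93 and -0.54. One gene, Mrpl4, then passed in the opposite direction on the deficient diet (0.32, adjusted p = 0.0499, against -0.08 without it). In that setting 6 genes on the adequate and 14 on the deficient diet had positive estimates, against 1 and 3. From the 6 arrays of the deficient diet alone, 18 large and 11 small subunit genes fell, against 11.7% of all genes.

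Promoter sequence is shown for 5 genes that span these patterns: Mrps27 and Mrpl44, which also passed in the diet comparison, Mrpl3, which fell on both diets, and Mrps26 and Mrpl32, which fell on neither. Each run is the 250 bases before the annotated start, 5′ to 3′ on the gene's strand, from RefSeq on GRCm38.p6. Capitals mark the ETS family core CCGGAAG or the NRF1 core GCGCATG on either strand.
Mrps27, chr13:99344536-99344785, plus strand: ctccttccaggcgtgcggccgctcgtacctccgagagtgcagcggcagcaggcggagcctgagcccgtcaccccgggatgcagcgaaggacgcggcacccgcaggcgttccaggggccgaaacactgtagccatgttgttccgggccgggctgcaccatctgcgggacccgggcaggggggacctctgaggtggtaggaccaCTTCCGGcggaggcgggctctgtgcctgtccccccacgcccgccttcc
Mrpl44, chr1:79775768-79776017, plus strand: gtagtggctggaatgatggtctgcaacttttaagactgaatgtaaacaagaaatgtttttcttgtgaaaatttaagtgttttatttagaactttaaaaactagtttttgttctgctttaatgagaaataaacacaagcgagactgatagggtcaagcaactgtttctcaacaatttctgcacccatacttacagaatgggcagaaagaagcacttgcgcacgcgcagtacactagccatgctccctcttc
Mrpl3, chr9:105053018-105053267, plus strand: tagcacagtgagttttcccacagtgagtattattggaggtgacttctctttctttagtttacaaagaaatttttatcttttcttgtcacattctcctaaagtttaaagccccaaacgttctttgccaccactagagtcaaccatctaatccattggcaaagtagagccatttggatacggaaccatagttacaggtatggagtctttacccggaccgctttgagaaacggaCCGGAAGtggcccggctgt
Mrps26, chr2:130563507-130563756, plus strand: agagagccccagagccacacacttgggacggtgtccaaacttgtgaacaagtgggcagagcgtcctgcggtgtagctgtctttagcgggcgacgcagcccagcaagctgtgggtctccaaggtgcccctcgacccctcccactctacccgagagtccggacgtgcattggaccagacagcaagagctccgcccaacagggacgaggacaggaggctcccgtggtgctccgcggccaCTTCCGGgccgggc
Mrpl32, chr13:14613038-14613287, minus strand: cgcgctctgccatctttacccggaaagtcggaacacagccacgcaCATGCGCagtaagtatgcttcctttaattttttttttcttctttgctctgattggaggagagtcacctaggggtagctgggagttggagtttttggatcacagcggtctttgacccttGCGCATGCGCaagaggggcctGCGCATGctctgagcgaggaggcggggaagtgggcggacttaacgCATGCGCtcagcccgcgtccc
Mrps27, Mrpl3 and Mrps26 hold the ETS core, in the reverse orientation in Mrps27 and Mrps26. Mrpl32 holds the NRF1 core at 5 places, 2 of them overlapping. Mrpl44 holds neither exact string. It does hold GCGCACG, a near match to the NRF1 core that the search did not count. The ETS core stood before genes that fell on both diets and before 1 that fell on neither.

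RefSeq windows of 300 bases (250 before to 50 after the start) were matched for 66 of the 75 genes, 72 windows in all. Motifs were searched on both strands, and none of them contains another. CCGGAAG was in 34.7% of the members' windows, against 8.86% of all 32851 windows and 14.9% of the 14160 windows of protein-coding genes tested. The share was 30.4% in the large and 42.3% in the small subunit. GCGCATG was in 8 windows, 11.1%, 7 of them of the large subunit, against 3.91% of all windows and 5.87% of those of tested coding genes. The YY1 core AAGATGG was in 18.1%, against 6.34% and 6.51%. The GC box GGGCGG was in 52.8%, against 35.7% and 57.2%. The E-box CACGTG was in 9.72%, against 7.15% and 9.24%, and TATAAA in 6.94%, against 13.6% and 8.23%. A gene with several windows counts once for each, and all the overlapping windows of Mrpl2 held the E-box. The core CCGGAAG was in 13 of the 44 windows of genes that fell on both diets (29.5%) and in 4 of the 11 of genes that fell on neither (36.4%). A match is a match of letters only, and variants of these strings were not counted.

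The diet comparison in proerythroblasts asked what selenium deficiency changed at the earlier stage. In each subunit 1 gene fell, Mrpl44 and Mrps27, and none rose, while 4.02% of all genes passed, 2.76% lower and 1.27% higher. That is 2.13% of the large and 3.57% of the small subunit genes, close to the background. Most estimates were nevertheless below 0: 41 of 47 in the large and 26 of 28 in the small subunit, against 45.6% of all genes. The median change was -0.38 in the large and -0.30 in the small subunit, a linear ratio of 0.770 and 0.812, against 0.02 over all genes. The deficient arrays lay wholly below the adequate arrays for 24 large and 9 small subunit genes, an order found in 15.6% of all genes, and wholly above for none.

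Mrpl44 read 7.59, 7.61 and 7.34 in adequate and 6.85, 6.84 and 6.95 in deficient proerythroblasts. The diets were well apart on these arrays. It fell by 0.63 (SE 0.14, adjusted p = 0.0291, limma, n = 3 per group). Mrps27 read 8.12, 8.10 and 7.88 on the adequate and 7.26, 7.11 and 7.38 on the deficient diet, again with no overlap. It fell by 0.78 (SE 0.17, adjusted p = 0.0251). Both calls were lost when any single proerythroblast array other than adequate replicate 3 was left out, with adjusted p up to 0.142 for Mrpl44 and 0.119 for Mrps27. Over all alternatives run, the highest adjusted p were these 2 values. The estimates stayed negative, but many alternatives, such as the filters, cannot change an estimate. After quantile normalization Mrps27 had an adjusted p of 0.0509.

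**Figure D3:**
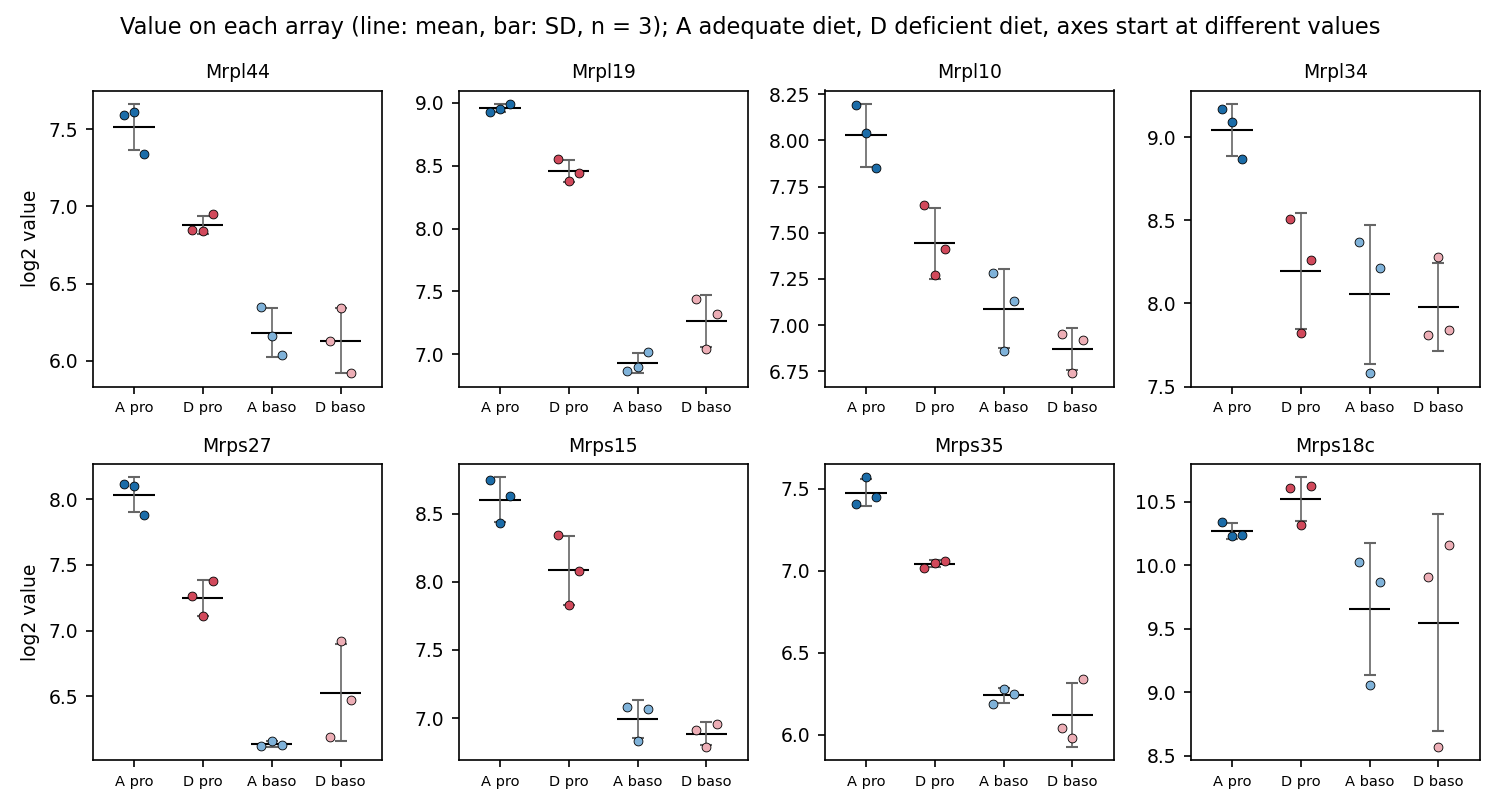
Each panel plots the log2 value of 1 gene on the 12 arrays in the 4 groups (A, adequate diet; D, deficient diet; pro, proerythroblasts; baso, basophilic erythroblasts), with the mean as a line and the SD as a bar (n = 3). In Mrpl44 and Mrps27 the 3 deficient proerythroblast arrays lie below the 3 adequate ones and above the adequate basophilic ones, and in Mrps18c the second replicate of each basophilic group lies far below the other two.

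The next genes by p did not pass. Mrpl19 changed by -0.50 (SE 0.13, adjusted p = 0.0504), and its deficient arrays, 8.38 to 8.55, lay below the adequate ones, 8.93 to 8.99. Mrpl10 changed by -0.58 (adjusted p = 0.0597), from 7.85 to 8.19 on the adequate to 7.27 to 7.65 on the deficient diet. Mrpl34, the counterpart of bacterial L34, read 9.17, 9.09 and 8.87 and then 8.51, 7.82 and 8.26, a change of -0.85 (SE 0.23, adjusted p = 0.0704). In the small subunit Mrps35 changed by -0.43 (adjusted p = 0.0783), Mrps15 by -0.52 (adjusted p = 0.09) and Mrps33 by -0.43 (adjusted p = 0.143). In all 6 of these genes the deficient arrays lay wholly below the adequate ones. The stalk genes Mrpl12 and Mrpl11 changed by -0.45 and -0.39, and the decoding gene Mrps12 by -0.40, none of them past the threshold.

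Samples with the same replicate number deviated together between the diets within each stage, though weakly for proerythroblast replicate 2 (r = 0.18). In basophilic erythroblasts replicates 1 and 3 did so across numbers too, so a pairing by number is not established. The fit with the replicate number as a block is given beside these counts. With 1 block for all groups, 7 large and 2 small subunit genes fell, against 3.75% of all genes lower. With the block set within each stage, a setting added after seeing the data, 13 large and 5 small subunit genes fell, 24.0% of the 75 genes against 7.05% of all genes lower. Mrpl44 and Mrps27 then had adjusted p of 0.0125 and 0.0114. Leaving out replicate 2 of both basophilic groups, which enter this comparison only through the shared spread, gave 14 large and 4 small subunit genes lower, against 9.77% of all genes. Single arrays moved the counts by more than 1.5 times. They were 0 and 0 without adequate proerythroblast replicate 1, adequate replicate 2, deficient replicate 2 or deficient replicate 3, and 5 and 3 without deficient basophilic replicate 2. Without adequate basophilic replicate 2 the large subunit count was 3, and without deficient basophilic replicate 3 the small subunit count was 2. Shares over all genes with a single array left out are not given here, so these counts cannot be set against a background. Without deficient proerythroblast replicate 2 the medians were -0.22 in the large and -0.15 in the small subunit.

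General erythroid markers had list means of 9.47 to 10.6 on the 12 arrays, and those of macrophages 5.73 to 7.17, of T cells 5.61 to 6.86 and of B cells 6.66 to 8.31. These ranges come from different probes and do not rank the lists. The highest means of the macrophage, T cell, B cell and neutrophil lists were all on adequate proerythroblast replicate 3. In adequate proerythroblasts Adgre1 read 5.33, 5.25 and 7.16, Cd3e 5.90, 5.99 and 7.23, and Ms4a1 6.66, 6.94 and 8.24. That array was the lowest of its group for 42 of the 75 mitochondrial ribosomal protein genes. The part of other cells in its values was not tested. Tfrc, the transferrin receptor, was the 1 general erythroid marker that rose with the deficient diet in proerythroblasts (0.97, adjusted p = 0.0347). The megakaryocyte list had means of 6.39 to 6.80 in proerythroblasts and 6.95 to 7.21 in basophilic erythroblasts. Of its 3 tested genes only Itga2b passed, higher by 0.75 with the diet in proerythroblasts (adjusted p = 0.0324) and by 0.75 and 0.88 with stage on the adequate and the deficient diet. The part of megakaryocyte RNA in these values was not tested. Most tested markers of erythroid stage moved with the diet in proerythroblasts. All 5 tested markers of later erythroid cells were higher in deficient proerythroblasts, with a median change of 1.67. The list's mean value was 9.35 to 9.62 on the adequate arrays, 10.9 to 11.2 on the deficient arrays and at most 12.1 in both basophilic groups. Of the 3 tested markers of earlier cells, Kit fell by 2.18 and Myb fell by 2.06, while Gata2 changed by -0.08 without passing. Cd34, on the list but too dim to be tested, had means of 4.89 in adequate and 4.97 in deficient proerythroblasts. The earlier list's mean value, over all 4 genes, was 7.40 to 7.62 on the adequate and 6.41 to 6.60 on the deficient arrays. The part of cell stage in the diet values of the mitochondrial ribosomal protein genes was not tested. Neutrophil markers fell with stage in 7 of 8 and 6 of 8 genes, with list means of 7.13 to 8.82 in proerythroblasts and 5.88 to 6.94 in basophilic erythroblasts. None of the 8 passed with diet at either stage. The part of neutrophil RNA in the stage values was not tested.

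In basophilic erythroblasts no mitochondrial ribosomal protein gene passed with diet by limma, and 4 of the 75 had an unadjusted p under 0.05. Of all genes 0.0199% passed and 6.48% had an unadjusted p under 0.05. The median change was -0.05 in the large and -0.01 in the small subunit, against 0.04 over all genes. Estimates were negative for 28 of 47 and 15 of 28 genes. The diets separated without overlap in 3 genes, against 8.04% of all genes. Mrpl19 read 6.87, 6.90 and 7.02 on the adequate and 7.44, 7.04 and 7.32 on the deficient diet, a change of 0.34 (adjusted p = 0.613). Mrps27 read 6.12, 6.16 and 6.13 and then 6.19, 6.92 and 6.47, a change of 0.39 (adjusted p = 0.743). Mrpl41 read 6.92, 6.80 and 6.90 and then 6.51, 6.60 and 6.35, a change of -0.39 (adjusted p = 0.641).

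The highest estimate in basophilic erythroblasts was that of Mrpl37, which read 7.94, 6.91 and 8.05 on the adequate and 8.72, 7.79 and 8.89 on the deficient diet. Each deficient array lay above the adequate array of the same replicate number. The change was 0.83 (SE 0.31, adjusted p = 0.614), and with the replicate block within each stage its adjusted p was 0.00988, where 1.45% of all genes passed. The lowest was that of Mrpl42, at -0.76 (adjusted p = 0.817), with values of 8.47, 7.89 and 8.31 and then 8.27, 6.45 and 7.67. Mrps36 changed by -0.57 (adjusted p = 0.81). Its product is also known as a subunit of the 2-oxoglutarate dehydrogenase complex. Mrps10 and Mrps9, counterparts of bacterial S10 and S9, changed by 0.37 and 0.20.

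Across the 75 genes, 42 had a negative diet estimate at both stages, 25 a negative one in proerythroblasts and a positive one in basophilic erythroblasts, 7 a positive one at both, and 1 the reverse. The diet estimates of the stages, which share no array, correlated across these genes at Pearson r = 0.33 and Spearman rho = 0.42, against 0.23 and 0.17 across all 20128 genes. Genes measured on the same arrays are not independent replicates, and replicate 2 was low for most of them in 3 of the 4 groups.

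**Figure D4:**
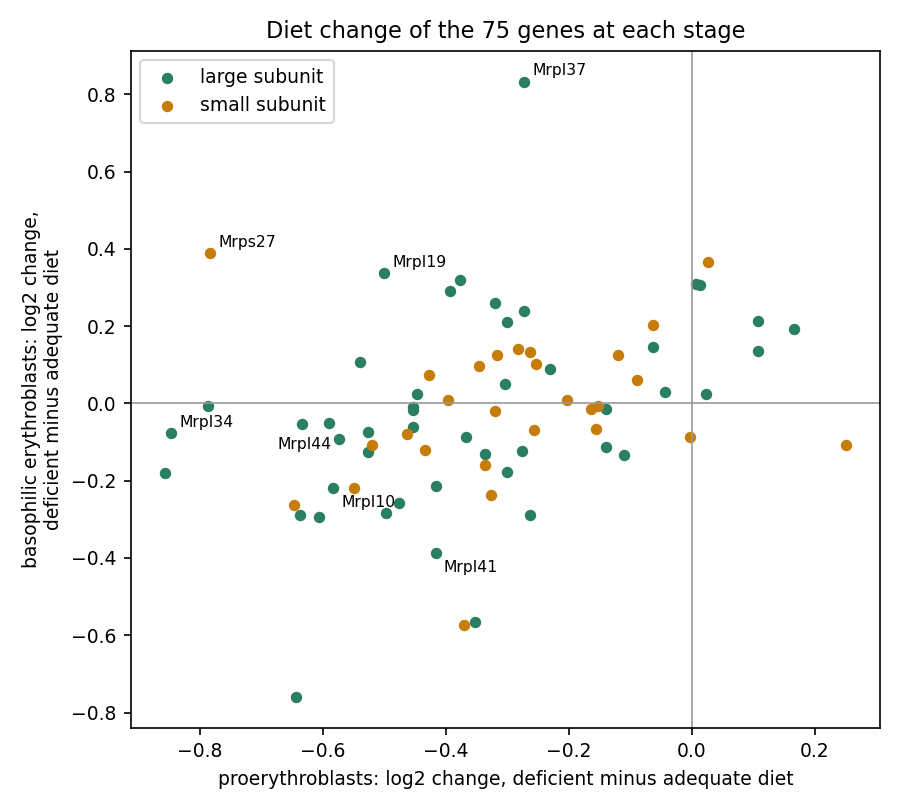
Each point is 1 of the 75 genes: its log2 change with the deficient diet in proerythroblasts (horizontal) and in basophilic erythroblasts (vertical), by subunit. In proerythroblasts 67 genes lie left of 0, and in basophilic erythroblasts 43 lie below 0. Mrpl37 is the highest at 0.83, and Mrps27 and Mrpl19 lie left of and above 0.

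The interaction, the diet change in basophilic erythroblasts minus that in proerythroblasts, asked whether diet acted differently by stage. It is also the stage change on the deficient diet minus that on the adequate diet. None of the 75 genes passed by limma and 10 had an unadjusted p under 0.05. Of all genes 0.303% passed and 9.15% had an unadjusted p under 0.05. The estimate was above 0 for 67 of the 75 genes, against 55.6% of all genes, with medians of 0.32 in the large and 0.31 in the small subunit and 0.03 over all genes. A positive value here is a smaller fall with stage on the deficient diet. Without deficient proerythroblast replicate 2 the medians were 0.22 and 0.16, and without adequate basophilic replicate 2 they were 0.20 and 0.22. They were 0.48 and 0.41 without deficient basophilic replicate 2.

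Mrps27 had the largest and first-ranked interaction of the small subunit, 1.17 (SE 0.24, adjusted p = 0.0747), and Mrpl19 the smallest p of the large subunit, 0.84 (SE 0.18, adjusted p = 0.0866). Mrpl44 followed with 0.58 (adjusted p = 0.313), Mrpl38 with 0.65 (adjusted p = 0.398) and Mrpl37 with 1.11 (adjusted p = 0.428). In the small subunit Mrps5 had 0.44, Mrps33 0.50 and Mrps12 0.41, none past the threshold. With the replicate block within each stage 2 large and 1 small subunit genes passed, against 2.93% of all genes. These were Mrpl19 (adjusted p = 0.0365), Mrpl37 (0.0114) and Mrps27 (0.0293). Without deficient basophilic replicate 2 the counts were also 2 and 1, with no share over all genes given for that setting.

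Cytosolic ribosomal protein genes and subunits of oxidative phosphorylation were read beside them, on the same arrays. Of 41 cytosolic ribosomal protein genes 34 fell and 2 rose with stage on the adequate diet, and 31 fell and 1 rose on the deficient diet, with medians of -0.69 and -0.58. Of 83 oxidative phosphorylation genes 50 and 21 fell and 3 and 5 rose, with medians of -0.60 and -0.26. Of all genes 25.6% and 24.9% were lower with stage on these diets, and 28.7% and 31.1% higher. The mitochondrial ribosomal medians over both subunits were -1.09 and -0.76. For diet in proerythroblasts the medians were -0.13 for cytosolic ribosomal proteins and -0.08 for oxidative phosphorylation, against -0.34 for the 75 genes, and no gene of either list passed. In basophilic erythroblasts they were 0.02 and 0.17, against -0.02. The differences between lists were not tested.

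Genes that serve the same ribosome were read from lists of their own. Of the 4 tested mitochondrial ribosomal proteins with other kinds of symbols, Ptcd3, a pentatricopeptide repeat protein of the small subunit, fell by 2.19 and 1.49 with stage on the adequate and the deficient diet. Chchd1 fell by 1.62 on the adequate diet and fell by 1.37 on the deficient diet, and Dap3 by 1.10 and 0.88. Gadd45gip1 changed by 0.01 and 0.24 without passing. None passed with diet. Ptcd3 changed by -0.84 in deficient proerythroblasts (adjusted p = 0.0512).

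Of 16 mitochondrial translation factors 13 fell and 1 rose with stage on the adequate diet, and 12 fell on the deficient diet. Of all genes 25.6% and 24.9% were lower with stage on these diets. In proerythroblasts 2 of 16 fell with diet, against 2.76% of all genes. Tufm, the elongation factor that brings aminoacyl-tRNA to the ribosome, read 10.65, 10.55 and 10.53 on the adequate and 9.77, 8.60 and 9.32 on the deficient diet. It fell by 1.35 (SE 0.27, adjusted p = 0.0147). Taco1, an activator of translation of a cytochrome oxidase subunit, fell by 0.69 (adjusted p = 0.0268). No translation factor passed with diet in basophilic erythroblasts.

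Of 23 assembly factors 18 fell and 1 rose with stage on the adequate diet, and 12 fell and 2 rose on the deficient diet. For this list and the next, 25.6% and 24.9% of all genes were lower with stage and 2.76% with diet in proerythroblasts. Noa1, a GTPase needed to build the mitochondrial ribosome, was the 1 that fell with diet in proerythroblasts. It read 8.50, 8.55 and 8.17 on the adequate and 7.59, 6.92 and 7.28 on the deficient diet, a fall of 1.14 (SE 0.21, adjusted p = 0.0095). Of 10 genes of mitochondrial DNA replication and transcription 7 and 5 fell with stage. In deficient proerythroblasts Tefm, an elongation factor of mitochondrial transcription, fell by 0.90 (adjusted p = 0.0149), and Tfam, which packages mitochondrial DNA and starts its transcription, by 0.50 (adjusted p = 0.032). None of these genes passed with diet in basophilic erythroblasts.

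The RNA of the small subunit, mt-Rnr1, is encoded by mitochondrial DNA and was measured by 1 feature. It was picked after its values were seen. Its values were 13.17, 13.30 and 13.21 in adequate and 13.22, 13.39 and 13.31 in deficient proerythroblasts. They were 13.30, 13.58 and 13.26 in adequate and 13.14, 13.14 and 13.30 in deficient basophilic erythroblasts. The groups overlapped, and the changes of 0.15 and -0.11 with stage on the adequate and the deficient diet did not pass (adjusted p = 0.323 and 0.459 over 40525 features, limma).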

How the data were processed

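Total RNA of 12 sorted samples was labelled and hybridised to Affymetrix arrays. The authors deposited log2 values made with Affymetrix Expression Console, per the submitters' processing notes. Background correction and normalization are not given in the sources used here. Of 72688 features, 31258 named 1 gene (1789 symbols updated through RefSeq), 1492 named several and 39938 none. The 186 controls are among these features. A gene was represented by its feature with the highest mean and tested when above 5.30 in at least 3 arrays. A mean per group was fitted with limma 3.58.1 (R 4.3.3, eBayes) to all 12 arrays, and checked on simulated data. Python 3.11.15 prepared the tables. The number of arrays limits the precision.

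Members and gene lists were chosen with earlier results of these data known. Genes named are, per subunit and comparison, the 4 with the smallest p, any that passed against the majority, those with the highest or lowest mean, a fixed list with known roles, and up to 4 per related list.

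Same-numbered samples correlated between diets within a stage (0.46, 0.18 and 0.52 in proerythroblasts, 0.72, 0.78 and 0.54 in basophilic erythroblasts, as deviations from group means), and not every pair exceeded 0.1 between stages (0.21, -0.07 and -0.17 on the adequate, 0.25, 0.19 and 0.0966 on the deficient diet). The pairing of the diets by number comes from this check alone. In basophilic erythroblasts unlike numbers also correlated, at 0.60 for adequate replicate 1 with deficient replicate 3 and 0.51 for the reverse. Pairs of replicate 2 with another number lay between -0.76 and -0.57. In proerythroblasts unlike numbers lay between -0.40 and 0.08. A pairing by number is thus not established in basophilic erythroblasts. Alternatives were the filter, quantile normalization, median centring, array weights, replicate blocks, averaging the features of a gene, the arrays of 1 comparison, and leaving out arrays.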

Additional observations from a re-analysis of the deposited data

Results flagged for a closer look

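In 2 genes the deficient arrays lay wholly below the adequate ones in proerythroblasts and wholly above them in basophilic erythroblasts, and 0.79% of all genes tested showed opposite orders at the stages, either way round. The gap in basophilic erythroblasts was narrow. The nearest adequate and deficient arrays read 7.02 and 7.04 for Mrpl19 and 6.16 and 6.19 for Mrps27, and neither gene passed with diet there. For Mrps27 the diet change in basophilic erythroblasts exceeded that in proerythroblasts by 1.17 (limma, adjusted p = 0.0747), and for Mrpl19 by 0.84 (adjusted p = 0.0866). Neither difference passed the threshold, and over the alternatives the adjusted p ran from 0.0120 to 0.222 for Mrps27 and from 0.00428 to 0.242 for Mrpl19.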

How the results depend on the processing

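The stage counts on the adequate diet stayed within 1.5 times under every alternative, with 33 to 40 large and 18 to 25 small subunit genes when 1 array was left out. On the deficient diet they were 22 to 33 and 13 to 21 with 1 array left out, and 18 and 11 from the arrays of that comparison alone. With the block within each stage, a stage change is no longer the difference of group means. For Mrpl44 on the adequate diet it was -1.455, against -1.33. Stage counts in that setting thus refer to another quantity. The diet counts in proerythroblasts moved most. For the large subunit, 1 in the fit reported, the count was 2 with the stricter filter, 2 with median centring, 5 after quantile normalization, 8 from the arrays of the comparison, 35 with array weights and 0 to 5 with 1 array left out. For the small subunit, also 1, it was 0 after quantile normalization, 2 with median centring, 2 from the arrays of the comparison, 18 with array weights (1 higher) and 0 to 3 with 1 array left out. With the stricter filter 4.52% of all genes were lower, against 4.05% of the members. These shares were 4.23% and 5.33% with median centring, and 2.86% and 6.67% after quantile normalization. From the arrays of the comparison 13.5% of all genes passed, 7.44% lower, against 13.3% of the members, all lower. With array weights 39.8% of all genes passed, 21.0% lower, against 69.3% of the members lower. Shares over all genes with 1 array left out are not given here. The cause was not tested. The array weights did not converge, and ran from 0.08 to 14.65.

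With the replicate block, which pairs the diets, these counts were 7 and 2, and 13 and 5 with the block within each stage. The latter gave 1 large subunit gene for diet in basophilic erythroblasts, and 2 large and 1 small for the interaction, against 1.45% and 2.93% of all genes. The block with 1 term for all groups changed no other count by over 1.5 times. Without replicate 2 of both basophilic groups the counts for diet in proerythroblasts were 14 and 4, against 17.0% of all genes, 9.77% lower. They were 1 large for diet in basophilic erythroblasts and 3 and 1 for the interaction, against 2.19% and 3.68% of all genes. The interaction gave 3 and 1 with array weights (2.39% of all genes) and 0 to 2 and 0 to 1 with 1 array left out. With 1 array left out, diet in basophilic erythroblasts gave 0 and 0.

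None of the 112 member changes that passed in the 5 comparisons changed sign under the 22 alternatives. Many of these could not change a sign, since they leave a gene's group means as they are. Examples are the filters, averaging features, 1 block for all groups and leaving out an array of another group. Changes that did not pass turned in some, such as those of Mrps12, Mrps2, Mrps26 and Mrpl33 on the deficient diet with 1 array left out. Median centring moved the all-gene median of the stage changes from 0.12 to -0.11 and from 0.08 to -0.13, and under it the members' medians over both subunits were -1.30 and -0.95. Values near the median of all values, such as those of Mrpl33, limit what a difference can show.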

Other observations

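The feature shared by Slc5a3 and Mrps6 read 6.57, 6.55 and 6.48 in adequate and 5.99, 5.92 and 5.89 in deficient proerythroblasts, and 5.56 to 5.81 on the 6 basophilic arrays. It fell by 0.60 with the deficient diet in proerythroblasts (SE 0.11, adjusted p = 0.0243 over 40525 features, limma), and by 0.91 with stage on the adequate diet (adjusted p = 2.10e-04). Which of the genes it reports cannot be read from the feature. The feature shared by Mrpl30 and Gm6238 fell with stage by 1.00 and 0.63 on the adequate and the deficient diet, and that shared by Ccdc142 and Mrpl53 changed by -0.32 and -0.19 without passing. The feature shared by Gm16279 and Mrps18b changed by 0.08 and 0.29 without passing (adjusted p = 0.635 and 0.109), unlike the feature that names Mrps18b alone.

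Of the pseudogene features, which are outside the 75 genes, 3 passed with stage on both diets. Mrpl23-ps1 fell by 2.03 and 1.54 on the adequate and the deficient diet, whereas Mrpl23 itself changed by -0.15 on both diets without passing. Mrps36-ps2 fell by 0.47 and 0.59, and Mrpl27-ps fell by 1.49 and 1.47. Mrpl48-ps passed on the adequate diet only (-1.15 and -0.64, adjusted p = 0.0128 and 0.0889) and Mrps36-ps1 on neither (-0.91 and -1.12). Near-identical copies can share probes, so these values are uncertain.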
